A study of Mus musculus with 32 samples.

Results

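The cytochromes P450 described here are 7 mouse liver genes of the Cyp3a and Cyp4a subfamilies, Cyp3a11, Cyp3a13, Cyp3a25, Cyp4a10, Cyp4a12b, Cyp4a14 and Cyp4a31. They were chosen by symbol, as the probes annotated to those names on an Illumina MouseRef-8 v2 BeadChip, an array that reports 1 fluorescence intensity per probe. In all, 8 of the 25697 probes belonged to 6 of the 7 genes, and none carried the symbol Cyp4a10. The array design named 1 probe each for Cyp3a11, Cyp3a25, Cyp4a12b, Cyp4a14 and Cyp4a31 and 3 for Cyp3a13. All 6 genes were among the 9972 that were tested, and each of the 8 probes was detected above the negative controls in 27 of 27 mice. Liver RNA came from male C57BL/6J mice aged 56 weeks after 40 weeks on their diet, and no allele or transgene was named for any group. The groups were HFD, a high-fat diet with 61% of its energy as fat, HFDL and HFDH, the same diet with disulfiram (DSF, an inhibitor of aldehyde dehydrogenases) at 100 and 200 mg/kg per day, and SD, SDL and SDH, a standard diet with 17% of its energy as fat without DSF and with those 2 doses. Per kg of food, the labels put DSF at 2.33 g in HFDL, 2.67 g in HFDH, 1 g in SDL and 2 g in SDH, so equal doses in mg/kg do not mean equal contents of the food, and the HFDL and HFDH foods differed little. The mice counted were 5 HFD, 4 HFDL, 4 HFDH, 5 SD, 5 SDL and 4 SDH, each a separate animal. Mice are named by group and by the number in the column names of the deposited table.

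Cytochromes P450 are membrane-bound enzymes that use oxygen and electrons from P450 reductase to hydroxylate their substrates. Cyp3a enzymes oxidise drugs, steroids and bile acids, and many Cyp3a genes are activated by the pregnane X receptor (PXR, Nr1i2) and the constitutive androstane receptor (CAR, Nr1i3), the xenobiotic sensors of the hepatocyte. Cyp4a enzymes hydroxylate the far end of fatty acids, and Cyp4a10, Cyp4a14 and Cyp4a31 are classical targets of the fatty-acid sensor PPAR-alpha (Ppara). Cyp4a12a and its near-identical neighbour Cyp4a12b form arachidonic acid products and are typical of male mouse liver, where pulsed growth hormone sets a programme that also includes Hsd3b5.

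The promoters of the Cyp3a genes are shown because Cyp3a11 and Cyp3a25 passed the test between the diets at each dose of DSF, as given below, and Cyp3a13 at none. Each runs from 250 bases before the RefSeq gene start to 50 bases after it (build GRCm38.p6, all on the minus strand of chromosome 5), written 5′ to 3′, with matches on either strand to 3 motifs in capitals. The motif AGGTCA and its variant AGTTCA are half-sites at which nuclear receptors such as PXR and CAR bind in pairs. The third, TATAAA, is the TATA box. The set of promoter sequences used held windows for 3 of the 7 genes.
Cyp3a11, chr5:145879805-145880104: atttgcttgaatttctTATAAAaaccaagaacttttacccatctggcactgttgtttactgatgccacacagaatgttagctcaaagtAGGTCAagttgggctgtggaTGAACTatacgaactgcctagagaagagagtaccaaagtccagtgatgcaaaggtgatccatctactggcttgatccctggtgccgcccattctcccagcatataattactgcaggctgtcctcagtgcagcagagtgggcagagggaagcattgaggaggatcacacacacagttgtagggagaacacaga
Cyp3a25, chr5:146009569-146009868: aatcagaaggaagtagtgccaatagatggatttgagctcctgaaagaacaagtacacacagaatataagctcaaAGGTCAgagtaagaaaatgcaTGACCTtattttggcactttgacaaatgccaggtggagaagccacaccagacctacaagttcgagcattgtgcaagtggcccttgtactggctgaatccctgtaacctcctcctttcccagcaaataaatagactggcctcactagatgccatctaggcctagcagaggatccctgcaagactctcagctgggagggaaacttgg
Cyp3a13, chr5:137921570-137921869: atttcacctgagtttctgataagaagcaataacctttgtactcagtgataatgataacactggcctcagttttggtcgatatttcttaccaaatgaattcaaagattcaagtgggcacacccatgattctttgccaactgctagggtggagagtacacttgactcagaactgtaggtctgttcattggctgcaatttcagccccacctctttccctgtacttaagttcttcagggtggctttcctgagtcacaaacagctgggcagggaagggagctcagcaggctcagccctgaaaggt
The Cyp3a11 window held AGGTCA starting 162 bases before the gene start, AGTTCA on the reverse strand at 142 bases and TATAAA at 234 bases. The Cyp3a25 window held AGGTCA at 176 bases on the forward strand and at 155 bases on the reverse strand. None of the 3 motifs was found in the Cyp3a13 window. Over 32851 promoter windows of this length, 16.3% held AGGTCA, 14% held AGTTCA and 13.6% held TATAAA on either strand, so a match is a description of the letters only.

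The 29 arrays used detected 43.8 to 52.7% of their probes, with median intensities of 57 to 77. The 9 hepatocyte markers, of which 7 passed the filter, summed to 81963 to 169968. A median of 6 or 7 of them was detected per mouse in each group. Mice SDH 16, HFDL 10 and HFDH 16 were left out because their arrays detected under 35% of probes, and Cyp3a11 read 36 to 50 there. Of the mice kept, SDH 17 and SD 2 carried pancreatic acinar transcripts. The 17 acinar markers measured, of which 7 passed the filter, summed to as much as 99236 in SDH livers (1245 without SDH 17). In SD livers they summed to as much as 12598 (2613 without SD 2), against 1032 to 1923 in the other 4 groups. In these whole livers, fewer cells of a type and less RNA per cell cannot be told apart. Levels below are normalised intensities, and folds are on their log2 scale. A probe's level cannot be set against another's.

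Cyp3a11, the major drug- and steroid-oxidising P450 of mouse liver, was the member that differed most clearly between the diets. Its intensity was 18496, 22284, 23622, 21347 and 20325 in the 5 HFD mice, against 6669, 8978, 7681, 8167 and 13667 in the 5 SD mice. Every HFD mouse was above every SD mouse. The geometric means were 21140 in HFD livers and 8751 in SD livers (SD of log2 values 0.13 and 0.39), a difference of 1.27 on the log2 scale (SE 0.18, adjusted p = 0.00086). In HFD-SD, 3 of the 6 measured members passed the adjusted p of 0.05, Cyp3a11, Cyp3a25 and Cyp4a12b, against 0.933% of all genes tested. At an unadjusted p of 0.05 all 6 did, against 14% of all genes, and the members' median difference was 0.955 against -0.031 over all genes. With all 30 mice in the fit, no member passed in HFD-SD (Cyp3a11 1.20, adjusted p = 1).

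With Z-normalization, the diet difference of Cyp3a11 was seen again at each DSF dose, in mice that the HFD-SD comparison did not use. The level was 25268, 25908, 23147 and 20418 in HFDL livers, against 8190, 9923, 10801, 14591 and 12809 in SDL livers. It was 28200, 26400, 31509 and 25468 in HFDH livers, against 13957, 12646, 14280 and 6930 in SDH livers, the last being the acinar-marked mouse SDH 17. Neither pair of groups overlapped, as for 2.85% of all genes that were higher in HFDL-SDL and 5.66% in HFDH-SDH. The log2 differences were 1.10 in HFDL-SDL (SE 0.19, adjusted p = 0.0061, where 3.04% of all genes passed) and 1.27 in HFDH-SDH (SE 0.20, adjusted p = 0.0014, where 6.83% passed). With all 30 mice the HFDL-SDL difference was -0.50 (adjusted p = 0.94). It was 0.72 under quantile normalization (adjusted p = 0.053) and 0.72 with background correction before it (adjusted p = 0.059). Under other settings the HFDH-SDH difference of Cyp3a11 was as low as 0.83.

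**Figure D1:**
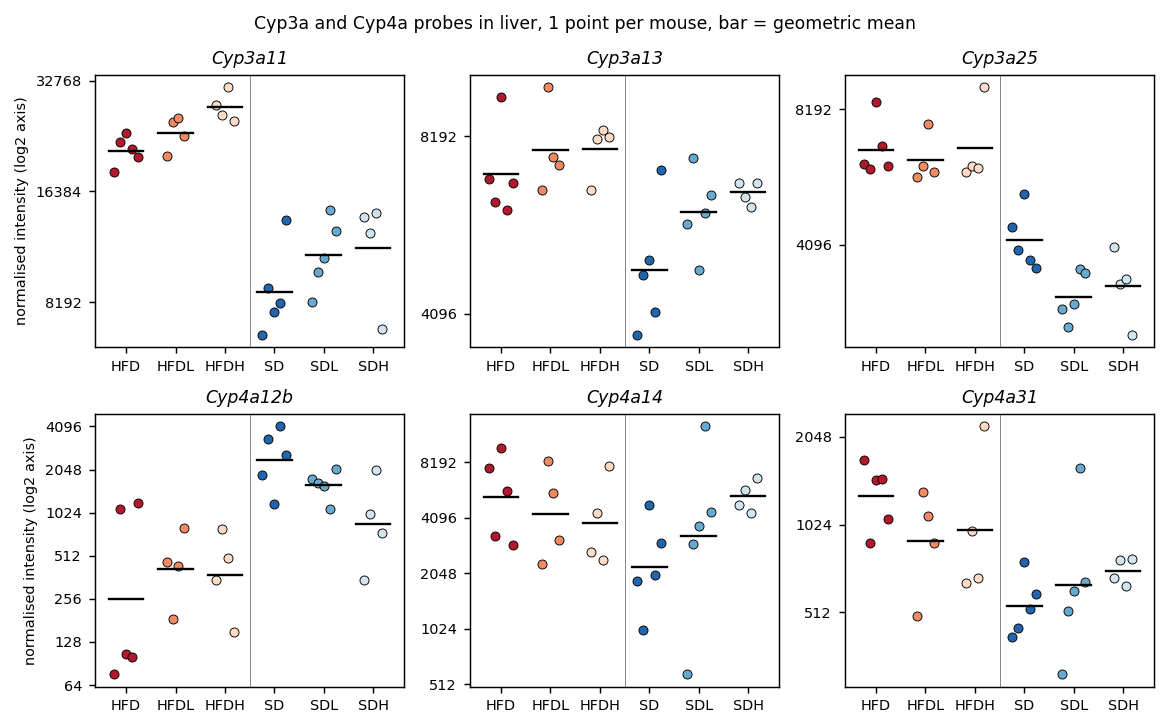
Normalised intensity (log axis) of the 6 measured members in each mouse, by group, with a point per mouse and a line at each group's geometric mean. For Cyp3a11 the 13 HFD-fed mice sit between 18496 and 31509, all above the 14 SD-fed mice at 6669 to 14591.

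Cyp3a25, a second hepatic Cyp3a gene, followed the diet in the same way. Its level was 6179, 6038, 8520, 6774 and 6121 in HFD livers, against 4491, 3998, 5314, 3802 and 3642 in SD livers. The groups did not overlap (1.19% of all genes were higher in HFD without overlap), and the difference was 0.66 (SE 0.14, adjusted p = 0.019). It was 0.42 (adjusted p = 0.14) when arrays were centred on their medians, and its adjusted p was 0.052 without SD 2, 0.077 without HFD 3 and 0.065 without HFD 4. With DSF on both sides, the level was 6123, 7595, 5958 and 5807 in HFDL livers, against 2948, 2688, 3032, 3616 and 3552 in SDL livers. It was 5935, 6121, 6077 and 9178 in HFDH livers, against 4053, 3348, 3435 and 2585 in SDH livers. With Z-normalization, Cyp3a25 was thus about 2-fold higher on the high-fat diet at either dose. The difference was 1.01 in HFDL-SDL (SE 0.15, adjusted p = 0.0013) and 1.02 in HFDH-SDH (SE 0.16, adjusted p = 0.0013). Under other settings the HFDH-SDH difference was as low as 0.67. With all 30 mice the HFDL-SDL difference was -0.27 (adjusted p = 0.96).

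Over the whole experiment, Cyp3a11 and Cyp3a25 were the only 2 of 9972 genes whose level in each of the 13 HFD-fed mice was above that in each of the 14 SD-fed mice (0.0201% of genes). Cyp3a11 had a median of 23622 in HFD-fed mice and 10353 in SD-fed mice. Cyp3a25 had a median of 6121 in HFD-fed mice (range 5807 to 9178) and 3584 in SD-fed mice (range 2585 to 5314). This separation depended on the scaling, because both genes overlapped between the diets after median centring, quantile normalization or background-corrected quantile normalization (neqc), and as raw intensities. Sizes depended on it as well. After median centring the HFD-SD difference was 0.98 for Cyp3a11 and 0.42 for Cyp3a25, against 1.27 and 0.66 with Z-normalization. The mean of the 3 HFD groups was also set against the mean of the 3 SD groups. With Z-normalization this contrast gave 1.21 (SE 0.11, adjusted p = 4.8e-07) for Cyp3a11 and 0.90 (SE 0.09, adjusted p = 4.8e-07) for Cyp3a25. Both genes still passed it under those 3 normalizations, with adjusted p of at most 0.0001. In that contrast 5 of the 6 members passed, against 21.4% of all genes. With all 30 mice none did.

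Cyp3a13, a Cyp3a enzyme also expressed outside the liver, differed less. Its brightest probe read 6942, 6347, 9540, 6143 and 6827 in HFD livers, against 3768, 4766, 5057, 4117 and 7189 in SD livers. Only SD 5 lay within the HFD range, and the difference of 0.54 (SE 0.15) had an adjusted p of 0.08. The 2 other Cyp3a13 probes differed by 0.56 (adjusted p = 0.12) and 0.36 (adjusted p = 0.5), the same way. Mouse SD 5 was the highest SD mouse for Cyp3a13 and Cyp3a11 and also for Cyp2b10, a CAR target that rose with DSF, as given below (960, against 63 to 99 in the other SD mice and 953 to 2135 in SDL mice). Gstm1 and Ntrk2, picked after their values were seen, did not follow. Gstm1 was 7967 in SD 5, against 7001 to 9642 in the other SD mice and 13153 to 18579 in SDL mice. Ntrk2 was 500 in SD 5, against 201 to 675 in the other SD mice and 136 to 200 in SDL mice. Over 45 genes called the same way in HFDL-HFD and HFDH-HFD, each SD mouse was set against the median of the other SD mice. SD 5 was shifted the way of DSF in 26 of them, SD 1 in 38 and the others in 10 to 26. Nearer to the SDL mean than to that median were 21 genes in SD 5, 18 in SD 1 and 3 to 6 in the others. Whether the label of SD 5 is right could not be settled from these values. Without SD 5, Cyp3a13 was higher by 0.68 in HFD-SD (adjusted p = 0.0049) and the Cyp3a11 difference was 1.43 (adjusted p = 3e-05). Averaged over the doses, Cyp3a13 was higher on the high-fat diet by 0.38 (SE 0.09, adjusted p = 0.0049), but by 0.05 (adjusted p = 0.67) after median centring and 0.23 (adjusted p = 0.1) after quantile normalization.

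Cyp4a12b, the male-typical arachidonic acid hydroxylase, was the only member that fell on the high-fat diet. Its level was 76, 1094, 105, 101 and 1192 in HFD livers, against 1874, 3351, 1168, 4109 and 2606 in SD livers. HFD mice 1, 3 and 4 lay far below every SD mouse, while HFD 2 was just below and HFD 5B just above the lowest SD mouse. The difference was -3.24 (SE 0.66, adjusted p = 0.016), a 9.43-fold lower geometric mean. The 3 lowest mice lay close to the arrays' median intensities of 57 to 77, and with background correction (neqc) the difference was -3.68. Its adjusted p was 0.067 without HFD 3 and 0.066 without HFD 4. At the low dose the level was 186, 435, 795 and 460 in HFDL livers, against 1759, 1657, 1565, 1081 and 2062 in SDL livers. These groups did not overlap (5.81% of genes were lower without overlap), although the difference of -1.94 (SE 0.70) had an adjusted p of 0.11, and of 0.038 after median centring. At the high dose it was 349, 784, 491 and 150 in HFDH livers, against 345, 994, 2040 and 733 in SDH livers, and the ranges overlapped (-1.17, SE 0.73, adjusted p = 0.34). Averaged over doses, Cyp4a12b was lower on the high-fat diet by 2.11 on the log2 scale (95% interval -2.94 to -1.29, adjusted p = 0.00072). The array could not be shown to separate Cyp4a12b from Cyp4a12a, whose own probe gave a difference of -1.26 in HFD-SD (adjusted p = 0.23) and -1.49 over the doses (adjusted p = 0.001).

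The same 3 HFD mice stood apart for other sex-typical genes, which were picked after their values were seen. Hsd3b5, a steroid dehydrogenase of male mouse liver, read 62, 1603, 66, 82 and 2267 in HFD mice 1, 2, 3, 4 and 5B, against 5542, 4334, 1612, 2153 and 287 in SD mice. Cyp2b9, a female-typical P450, read 5525, 2502, 6101, 5826 and 1644 in the same HFD mice, against 194, 418, 940, 149 and 56 in SD mice. Cyp2b13, another female-typical P450, read 1537, 387, 1409, 619 and 102 in those HFD mice, against 48 to 72 in SD mice. HFD mice 1, 3 and 4 were thus lowest for Cyp4a12b and Hsd3b5 and highest for Cyp2b9 and Cyp2b13. Of 15 male-biased genes tested, none passed in HFD-SD and 14 had a negative difference (median -0.563, against -0.031 over all genes), while 2 passed as lower without SD 5. Of 10 female-biased genes tested, 2 rose in HFD-SD, where 0.933% of all genes passed. They were Cyp2b9 (4.05, adjusted p = 0.0053) and Cyp2b13 (3.25, adjusted p = 0.0023). Only 6 of the 10 had a positive difference (median 0.275), and 5 without the acinar-marked mice (median 0.041), so the list did not rise as a whole.

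Cyp4a14, a fatty acid hydroxylase of the PPAR-alpha programme, varied more within groups than between them. Its level was 7659, 3283, 9759, 5720 and 2919 in HFD livers, against 1864, 1013, 4801, 2006 and 2988 in SD livers. The highest SD mouse exceeded 2 of the HFD mice, and the difference of 1.25 (SE 0.56) had an adjusted p of 0.31. The widest spread was in SDL livers, where the 5 mice read 580, 2946, 3715, 12846 and 4398. None of the 15 pairs of groups passed the test for Cyp4a14.

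Cyp4a31, its neighbour in the Cyp4a cluster, showed the same pattern over a narrower range. Its level was 1707, 886, 1459, 1466 and 1067 in HFD livers, against 423, 453, 765, 527 and 593 in SD livers. The groups did not overlap, and the difference was 1.25 (SE 0.34, 95% interval 0.54 to 1.95), but its adjusted p was 0.079. It was 0.035 when only HFD and SD mice entered the fit and 0.041 without SDL 8 or without HFDH 17. Averaged over the doses, Cyp4a31 was higher on the high-fat diet by 0.74 (SE 0.21, adjusted p = 0.014), while Cyp4a14 differed by 0.39 (SE 0.34, adjusted p = 0.44). Whether signal of Cyp4a10 or other close Cyp4a relatives enter these probes was not tested.

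**Figure D2:**
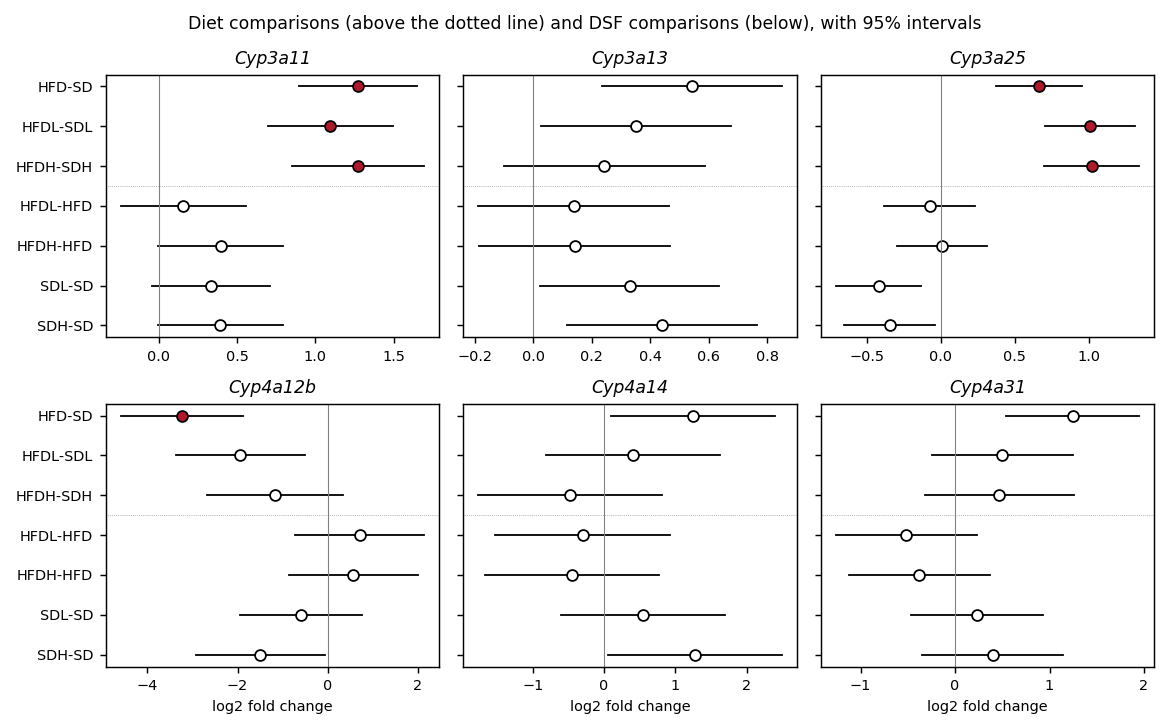
Log2 fold change with its 95% interval for each measured member in the diet comparisons (above the dotted line) and the DSF comparisons (below it), filled where the adjusted p was under 0.05. In HFD-SD, Cyp3a11 (1.27), Cyp3a25 (0.66) and Cyp4a12b (-3.24) are filled, and no member is filled in the 4 comparisons of DSF with its own diet.

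Disulfiram changed no member past the test at either dose on either diet. The share of all genes that passed was 0.461% in HFDL-HFD, 4.38% in HFDH-HFD, 0.632% in SDL-SD and 7.07% in SDH-SD. The smallest adjusted p of a member was 0.66, 0.26, 0.21 and 0.088 in those comparisons by limma, and the members under an unadjusted p of 0.05 numbered 0, 0, 2 and 4 of 6. The intervals were still wide enough to hold moderate changes. Cyp3a11 differed by 0.40 in HFDH-HFD (95% interval -0.00 to 0.79), with all 4 HFDH mice above all 5 HFD mice, as 3.81% of all genes were. It differed by 0.16 in HFDL-HFD (interval -0.24 to 0.56), by 0.34 in SDL-SD (interval -0.04 to 0.71) and by 0.39 in SDH-SD (interval -0.01 to 0.79). These sizes depended on the scaling. After median centring they were -0.003 in HFDH-HFD (adjusted p = 0.99), -0.14 in HFDL-HFD, 0.18 in SDL-SD and 0.15 in SDH-SD. After quantile normalization they were 0.12, -0.09, 0.23 and 0.21 in the same order. With Z-normalization the adjusted p of Cyp3a11 in SDH-SD was 0.22 with the 27 mice. It was 0.031 without SDH 17 (difference 0.64), and 0.054 without both acinar-marked mice. With all 30 mice the Cyp3a11 differences turned negative, at -1.39 in HFDL-HFD, -1.22 in HFDH-HFD and -0.91 in SDH-SD (adjusted p = 0.95, 0.95 and 0.68).

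Cyp3a25 stood the other way on the standard diet. All 5 SDL mice were below all 5 SD mice, as 1.23% of genes were, and the difference was -0.42 (interval -0.71 to -0.13, adjusted p = 0.21). In SDH-SD it was -0.35 (interval -0.65 to -0.04, adjusted p = 0.16) and after median centring -0.56 (adjusted p = 0.035). On the high-fat diet its differences were -0.07 in HFDL-HFD and 0.01 in HFDH-HFD, but -1.29 and -1.20 with all 30 mice (adjusted p = 0.95 for each).

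Cyp3a13 differed by 0.33 in SDL-SD (adjusted p = 0.42) and 0.44 in SDH-SD (adjusted p = 0.088), with SDL levels of 5826, 7525, 4866, 6061 and 6509 and SDH levels of 6834, 6465, 6226 and 6830. Without SD 5 the SDH-SD difference was 0.58 (adjusted p = 0.013), and with all 30 mice it was -1 (adjusted p = 0.54). On the high-fat diet Cyp3a13 read 9933, 7565, 7320 and 6639 in HFDL livers and 6648, 8090, 8389 and 8172 in HFDH livers, within 0.14 of HFD on the log2 scale at either dose.

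Among the Cyp4a genes, Cyp4a14 read 4797, 5821, 4371 and 6759 in SDH livers, and only SD 3 at 4801 reached into that range (SDH-SD difference 1.27, SE 0.59, adjusted p = 0.19). On the high-fat diet it read 8349, 5597, 3122 and 2306 in HFDL livers and 2674, 4367, 2420 and 7831 in HFDH livers, with differences from HFD of -0.30 (SE 0.59) and -0.45 (SE 0.59). Cyp4a31 was at 1328, 1100, 887 and 498 in HFDL livers and 644, 972, 674 and 2225 in HFDH livers, and its differences from HFD were -0.52 (SE 0.36) and -0.38 (SE 0.36). Its SDL-SD difference was 0.23 (SE 0.34, levels 314, 516, 607, 1596 and 653 in SDL livers) and its SDH-SD difference 0.40 (SE 0.36, levels 670, 774, 630 and 781 in SDH livers). Cyp4a12b differed by 0.71 in HFDL-HFD (SE 0.70), 0.57 in HFDH-HFD (SE 0.70), -0.59 in SDL-SD (SE 0.66) and -1.50 in SDH-SD (SE 0.70, adjusted p = 0.19). No member passed for the high dose against the low dose on either diet, nor did any other gene (0% of genes in HFDH-HFDL and in SDH-SDL, where 0 genes passed by limma).

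Whether DSF acted differently on the diets was tested as an interaction. No member passed for (HFDL-HFD)-(SDL-SD), where 0% of genes did, or for (HFDH-HFD)-(SDH-SD), where 0.0602% did. The members furthest from 0 were Cyp4a12b at the high dose (2.07, interval 0.04 to 4.10, adjusted p = 0.38) and Cyp4a14 at the high dose (-1.72, interval -3.45 to 0.00, adjusted p = 0.39). With Z-normalization, the order of the group means was HFDH, HFDL, HFD, SDH, SDL, SD for Cyp3a11. Only the neighbours HFD and SDH differed (0.88, adjusted p = 0.0083, where 4.62% of genes passed). For Cyp3a25 the order was HFDH, HFD, HFDL, SD, SDH, SDL, and only HFDL and SD differed (0.59, adjusted p = 0.013, where 10.4% of genes passed). No neighbours differed for Cyp3a13 (HFDH, HFDL, HFD, SDH, SDL, SD) or for Cyp4a12b (SD, SDL, SDH, HFDL, HFDH, HFD). Z-normalization divides each array by the standard deviation of its log2 intensities. It was 1.78 to 1.87 in HFDH, 1.8 to 1.87 in HFDL and 1.85 to 1.92 in HFD arrays used. In SDH, SDL and SD arrays it was 1.86 to 1.93, 1.85 to 1.97 and 1.92 to 1.99. After median centring, HFDH and HFDL were not above HFD for Cyp3a11 (-0.003 and -0.14) or Cyp3a13 (-0.18 and -0.10). How far the scaling sets these orders was not tested.

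Other known targets of PXR and CAR were set beside the Cyp3a genes. Of 26 tested, 0 passed in HFD-SD, 1 rose in HFDL-HFD, 3 rose and 2 fell in HFDH-HFD, 4 rose in SDL-SD and 10 rose in SDH-SD. The shares of all genes that passed there were 0.933%, 0.461%, 4.38%, 0.632% and 7.07%. The median differences of the 26 were 0.3, -0.032, 0.085, 0.208 and 0.49 in those comparisons, against -0.031, -0.015, -0.005, -0.008 and -0.039 over all genes. Between the diets at each dose, where Cyp3a11 and Cyp3a25 were higher, 0 rose and 2 fell in HFDL-SDL (3.04% of all genes passed). In HFDH-SDH 0 rose and 5 fell (6.83% of all genes passed). Without SD 5 the counts that rose were 5 in HFDH-HFD, 3 in HFDL-HFD, 2 in HFD-SD, 2 in HFDL-SDL and 1 in HFDH-SDH. With all 30 mice 1 passed in HFDH-HFD and none in the other comparisons.

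Cyp2b10, the P450 most typical of CAR, read 1260 to 3131 in HFDL livers and 1508 to 5533 in HFDH livers, against 155 to 226 in HFD livers. On the standard diet it read 953 to 2135 in SDL livers and 1234 to 2443 in SDH livers, against 63 to 99 in 4 SD mice and 960 in SD 5. It rose by 3.26 in HFDL-HFD (adjusted p = 0.0024), 3.97 in HFDH-HFD (adjusted p = 9.6e-05), 3.53 in SDL-SD (adjusted p = 0.00066) and 3.96 in SDH-SD (adjusted p = 8.4e-05). Cyp2c29, a drug- and arachidonate-oxidising P450, rose by 1.25 in HFDH-HFD, 2.16 in SDL-SD and 2.71 in SDH-SD. Gstm1, a glutathione transferase, rose by 0.59, 0.88 and 1.35 in the same comparisons. The aldehyde dehydrogenases Aldh1a1 (-0.88) and Aldh1a7 (-0.92) were the pair that fell in HFDH-HFD.

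**Figure D3:**
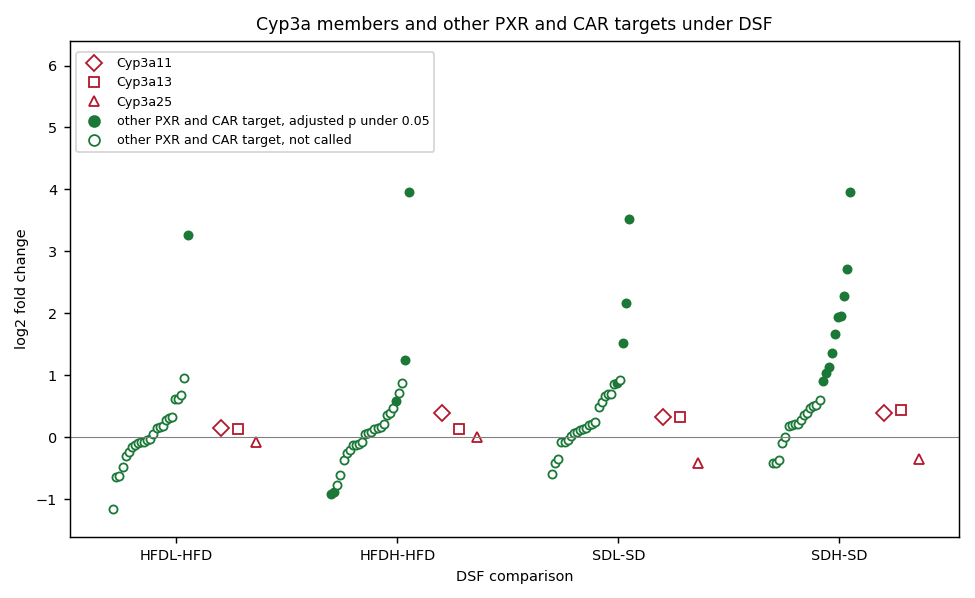
Log2 fold change of the 26 tested PXR and CAR targets and of the 3 Cyp3a members in the 4 comparisons of DSF with its own diet, a point per gene, with the targets filled where the adjusted p was under 0.05. Cyp2b10 lies at 3.26 to 3.97 in all 4, while Cyp3a11 lies at 0.16 to 0.40.

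Of 16 nuclear receptor and electron donor genes tested, none passed in HFD-SD or SDL-SD, where 0.933% and 0.632% of all genes did. In HFDL-HFD 1 fell (0.461% of all genes passed) and in HFDH-HFD 2 fell (4.38%). In SDH-SD 2 rose and 2 fell (7.07%). Nr1i2 differed by 0.27 in HFD-SD (adjusted p = 0.54) and Nr1i3 by 0.20 (adjusted p = 0.71), and neither passed in any of the 4 comparisons of DSF. Ppara fell in HFDH-HFD (-0.54, adjusted p = 0.0082) and in SDH-SD (-0.44). Pparg, its adipogenic relative, fell by 1.04 in HFDL-HFD, by 1.22 in HFDH-HFD (adjusted p = 0.0038) and by 0.80 in SDH-SD. In SDH-SD, Rxra, the partner of all these receptors, rose by 0.37 and the electron donor Cyb5a by 0.54, and none of the 16 passed there without the acinar-marked mice.

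Counts of other PPAR-alpha targets are read against the shares of all genes that passed, 0.933% in HFD-SD, 4.38% in HFDH-HFD and 7.07% in SDH-SD, and in the comparisons of DSF they were near them. Of 37 tested, 2 rose in HFD-SD, the fatty acid oxidation genes Acadm (0.36, adjusted p = 0.036) and Ech1 (0.53, adjusted p = 0.028). None passed in HFDL-HFD or SDL-SD. In HFDH-HFD 2 fell, the fatty aldehyde dehydrogenase Aldh3a2 (-0.86) and the lipid droplet gene Fitm1 (-1.29), and 4 fell without SD 5 or without the acinar-marked mice. In SDH-SD 2 rose, Eci2 (0.75) and Cpt1b (0.62), and 1 fell, but none of the 37 passed there without the acinar-marked mice. Of 8 other Cyp4 genes tested, 1 rose (Cyp4f39, 0.37) and 1 fell (Cyp4b1, -0.69), both in SDH-SD, and neither passed without the acinar-marked mice. Of 10 other Cyp3a and Cyp4a genes, Cyp4a12a alone was tested, and probes of the female-typical Cyp3a16, Cyp3a41a and Cyp3a44 stayed at background (37 to 61).

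**Figure D4:**
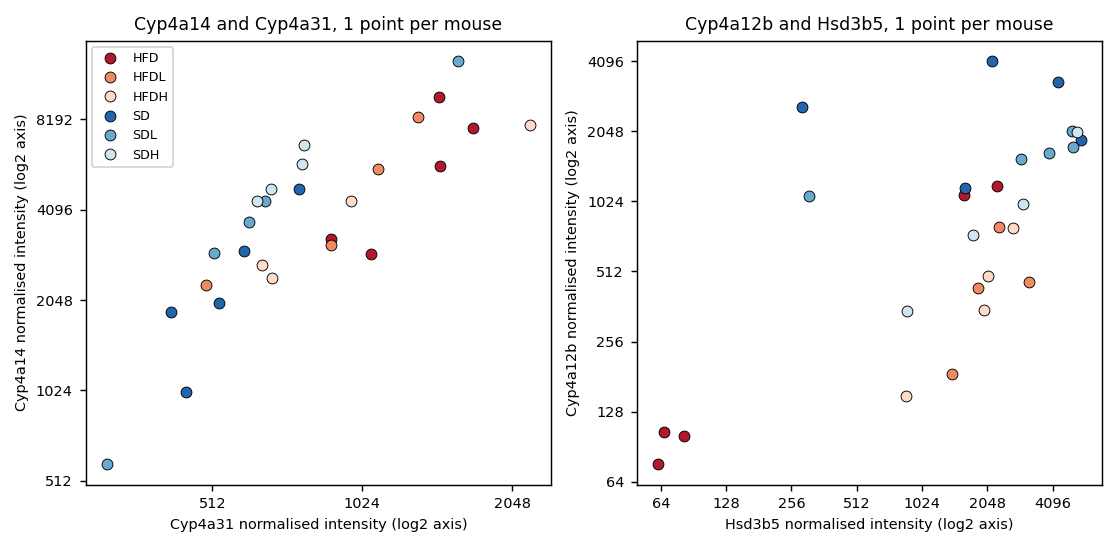
Normalised intensities (log axes) of Cyp4a14 against Cyp4a31 in the left panel and of Cyp4a12b against Hsd3b5 in the right panel, a point per mouse coloured by group. Cyp4a14 and Cyp4a31 run together on both diets (r = 0.882 in 13 HFD-fed and 0.929 in 14 SD-fed mice), and HFD mice 1, 3 and 4 lie lowest for both Cyp4a12b and Hsd3b5.

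Across mice, the members that varied most closely together were Cyp4a14 and Cyp4a31. Mice of a diet were pooled and permuted over the doses, without removing group means, so differences between doses enter these relations. Over log2 levels Pearson's r was 0.882 in the 13 HFD-fed mice (permutation p = 7e-05, adjusted p = 0.00079 over 34 relations; Spearman's rho 0.874, adjusted permutation p = 0.0029). In the 14 SD-fed mice r was 0.929 (permutation p = 1e-05, the smallest the permutations can give, adjusted p = 0.00034; rho 0.991, with the same adjusted p). Without the 2 mice farthest from the median, r was 0.925 in HFD-fed mice and 0.944 in SD-fed mice. Cyp3a25 also ran with both in the HFD-fed mice, with Cyp4a31 at r = 0.686 (adjusted permutation p = 0.042; rho 0.907, adjusted p = 0.001) and with Cyp4a14 at r = 0.678 (adjusted permutation p = 0.038; rho 0.852, adjusted p = 0.0034), but r was 0.461 and 0.484 without the 2 farthest mice. In the SD-fed mice these r were 0.071 and -0.010. Cyp4a12b ran against Cyp4a14 in the HFD-fed mice (r = -0.760, adjusted permutation p = 0.033; rho -0.643, adjusted p = 0.071; -0.748 without the 2 farthest mice) and, by rank, in the SD-fed mice (r = -0.546, adjusted permutation p = 0.15; rho -0.701, adjusted p = 0.033). Mouse SDL 8 was highest in its group for Cyp4a14, Cyp4a31 and Cyp3a11, and SDL 10 was lowest for all 3. Cyp4a12b ran with Cyp4a12a in SD-fed mice (r = 0.836, adjusted permutation p = 0.0014; rho 0.754, adjusted p = 0.016; 0.795 without the 2 farthest mice) and less closely in HFD-fed mice (r = 0.534, adjusted p = 0.17). Cyp3a11 and Cyp3a25, although both separated the diets, did not vary together within them (r = 0.124 in HFD-fed mice, adjusted permutation p = 0.78, and -0.070 in SD-fed mice, adjusted permutation p = 0.85).

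By likeness over all 27 mice, a ranking that includes the diet difference itself, the genes nearest to Cyp3a11 were Acadm (Pearson's r 0.879), Myd88 (0.854) and Hoga1 (0.842). Nearest to Cyp3a25 were Cyp2b9 (0.866), Prrt1 (0.862) and Decr2 (0.849), and nearest to Cyp3a13 were the glucocorticoid-responsive gene Fkbp5 (0.878) and the acute-phase genes Lrg1 (0.865) and Serpina3n (0.861). Cyp4a12b was most like Cyp4a12a (0.798), C6 (0.773) and Kcp (0.77). Cyp4a14 and Cyp4a31 shared Nt5e (0.776 for each), and Cyp4a31 was also like Cyp2c39 (0.789) and Cyp2b9 (0.757).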

How the data were processed

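Liver RNA of 30 mice was hybridised to 32 arrays, which the authors read with GenomeStudio (2011.1). Per probe and array, the deposited values are an unnormalized intensity and its detection p-value against negative controls. The authors also deposited a score per probe, Z-normalized within each array, which served here only as an alternative. Mice SD 1 and HFD 2 were measured on 2 arrays each (r = 0.997 and 0.996), which were averaged. Arrays detecting under 35% of probes at p under 0.05 were left out, leaving 29 arrays and 27 mice.

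Log2 intensities were Z-normalized per array and rescaled by the mean standard deviation (1.89) and mean. Probes detected in at least 5 mice were kept (13301 of 25697), and the brightest stood for each gene. Of all probes, 23978 carried 1 symbol and 1719 none. One mean per group was fitted with limma (3.58.1, R 4.3.3), and p-values were adjusted by Benjamini-Hochberg over 9972 genes, at 0.05. The number of mice limits the precision. Log2 folds understate changes near background. Correlations used 100000 permutations.

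The members and lists were chosen with earlier results of these data known. Named genes are the members, up to 4 called genes of each list and the 3 most alike by Pearson's r, with sex-typical genes and receptors added for single results after their values were seen. The diet comparisons at each dose and over the doses, and counts of lists without SD 5, were added after seeing the data. Alternatives covered normalization, filter, probe choice, samples in the fit, array weights, call rule and each mouse left out. The fit was tested on simulated data.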

Additional observations from a re-analysis of the deposited data

Results flagged for a closer look

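Among 48 groups of 4 or 5 mice (8 probes in 6 groups), 5 held a mouse that stood apart from the rest of its group beyond Dixon's critical value, where chance gives about 1 in 20. In HFDH, the Cyp3a25 level of mouse 17 was 9178, against 5935 to 6121 in the other 3 mice. In SDH, the Cyp3a11 level of mouse 17, the liver with the most acinar transcripts, was 6930, against 12646 to 14280. In HFD, mouse 3 was highest on a pair of Cyp3a13 probes, at 9540 against 6143 to 6942 and at 5881 against 3546 to 4079. In HFDH, the Cyp3a13 level of mouse 13 was lowest, at 6648 against 8090 to 8389. The part of these mice in the comparisons is given by leaving each of them out.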

How the results depend on the processing

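In HFD-SD, where 3 members passed, none passed with all 30 mice. None passed with the authors' scores either, which were run only on all 30 mice because their columns cannot be tied to single mice, so both choices changed at once. In the same comparison 5 passed with array weights, where 762 of 10041 genes did. Another 5 passed by the study's z-ratio and one-way cut-offs alone, where 617 of 9972 genes did. These z-ratio criteria leave out the z-test and the false discovery rate that the study also required. Leaving out 1 mouse at a time gave 1 to 4, with 1 without HFD 3 or HFD 4. In SDH-SD, where none passed, 1 passed with array weights (Cyp3a11 0.65, adjusted p = 0.045), 1 after median centring (Cyp3a25), 1 under the z-ratio criteria, and 0 to 1 with a mouse left out (1 without SD 5 or without SDH 17). The z-ratio criteria also gave 2 in HFDL-HFD, 1 in HFDH-HFD, 3 in SDL-SD and 1 in SDH-SDL, each with 0 by limma. Of all 9972 genes, they called 574, 625, 552 and 518 there, and 641 in SDH-SD. In HFDL-SDL, all 30 mice reversed Cyp3a11 (-0.50) and Cyp3a25 (-0.27), and the authors' scores of the same 30 mice gave -0.50 and -0.27. The cause was not tested. The HFD-SD call of Cyp3a25 was lost after quantile normalization (0.53, adjusted p = 0.073) and neqc (0.53, 0.083), and with only the HFD and SD mice (0.063), where that of Cyp4a12b was lost as well (0.11). Cyp3a11 kept its HFD-SD call except in these 2 settings that use all 30 mice.

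Genes called moved by more than 1.5 times in every comparison. HFD-SD had 93, against 1 to 762 under other settings and 21 to 243 with a mouse left out. HFDL-HFD had 46 (6 to 574 and 18 to 62), HFDH-HFD 437 (15 to 1161 and 167 to 577), SDL-SD 63 (2 to 552 and 29 to 103), SDH-SD 705 (6 to 1187 and 333 to 854). HFDL-SDL had 303 (0 to 1821 and 63 to 672), HFDH-SDH 681 (8 to 1302 and 198 to 838), and the diet contrast over the doses 2130 (95 to 4043 and 1752 to 2402). The high against the low dose had 0 on each diet (0 to 481 on HFD, 0 to 518 on SD).

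HFD and SD mice 1 to 4 were not taken as pairs, since their deviations from the group means correlated at -0.2 for number 1, although at 0.157 to 0.208 for the others, each most like its own number (a hint from the data, not the design). With the replicate block, HFD-SD called 268 genes and 4 members, the fourth being Cyp3a13 (0.70, adjusted p = 0.0052). No other paired analysis was possible because the column numbers of the mice fed DSF are not the replicate numbers of their sample titles, so the columns map to a group only. Signal over background limits Cyp4a12b, which was detected in HFD 1, 3 and 4 but only at 76 to 105, near the median intensity of the arrays. The probes of the other members read at least 308.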
